A study of Mus musculus with 6 samples.

Results

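The 9 genes described here encode enzymes, a transporter and regulators of glucose production and storage in the liver, and were followed in mice dosed with polystyrene microplastics (PS-MP). They were taken by name (Pcx, Pck1, Fbp1, G6pc, Slc2a2, Gckr, Gys2, Pygl and Ppargc1a) from the 55536 genes of the files, and each name matched 1 Ensembl gene of GENCODE M21. The rule that chose them goes by gene name and role, as a readout of feeding state, and uses no measured value. RNA sequencing of liver gave 6 libraries in 2 groups of 3. The PS-MP group were male C57BL/6 mice, an inbred laboratory strain, aged 6 weeks when dosing began and given PS-MP by mouth at 0.4 mg per day, in 2 dosings a week for 8 weeks. The water group were mice of the same strain, sex and age that received water on the same schedule. No label gives particle size, feeding state or hour of collection, and it is not stated whether each library is its own mouse, so a p-value here weighs only library-to-library spread, which may be technical.

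The liver keeps blood glucose steady by storing it as glycogen after a meal and releasing it between meals, first from glycogen and then by making it anew from lactate, glycerol and amino acids. In gluconeogenesis, pyruvate carboxylase (Pcx) and the cytosolic phosphoenolpyruvate carboxykinase (Pck1) bypass the last step of glycolysis, fructose-1,6-bisphosphatase (Fbp1) reverses the phosphofructokinase step, and the catalytic subunit of glucose-6-phosphatase (G6pc) frees glucose in the endoplasmic reticulum. Transcription of Pck1 and G6pc is raised by glucagon through cyclic AMP and by FOXO1, and is lowered by insulin. The coactivator PGC-1alpha (Ppargc1a) assists this programme and is itself induced by cyclic AMP in fasted liver.

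The libraries held 13082210 to 15938284 reads in the PS-MP group and 14520402 to 16948343 in the water group. Over 9 hepatocyte markers, the summed level was 35855 to 42997 FPKM (reads scaled to exon length and library depth) in PS-MP and 43101 to 45614 FPKM in water. Such a sum is weighted toward the most abundant markers. Taken singly, 4 of the 9 had a positive and 5 a negative log2 fold change, with a median of -0.04. An unadjusted limma p under 0.05 was found for 0 of them. Kidney, the other glucose-producing organ, left little trace: 4 of 6 tubule markers, Umod among them, were listed at 0 in every library, and the sum of the 6 was at most 0.181 FPKM in PS-MP and 0.0329 FPKM in water. Transcripts of fat, which also uses Pck1 and Pcx, were uneven, and 7 fat markers summed to 1.55, 1.58 and 16.1 FPKM in PS-MP replicates 1, 2 and 3, and to 37.3, 1.93 and 12.5 FPKM in water replicates 1, 2 and 3. The 8 brain markers summed to 3.64, 2.58 and 26.7 FPKM in the PS-MP libraries and to 1.63, 1.42 and 1.498 FPKM in the water libraries. PS-MP replicate 3 held both kinds of transcript. The 7 fat markers are of brown and white fat together, and their sum does not split the 2. Refits without the 3 libraries with the highest fat sums (PS-MP replicate 3, water replicates 1 and 3) are called reduced refits below. Those libraries are also named below as the ones with brown fat transcripts. The reduced refits keep 2 PS-MP libraries and water replicate 2, which is assumed to vary like the PS-MP ones, so only their effect sizes are of use. The part of the fat and brain transcripts in the differences below was not tested. In bulk RNA, fewer cells of a type and less RNA per cell cannot be told apart.

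The start regions of Pck1, G6pc and Ppargc1a are shown because these genes share a known hormonal input and had unlike log2 fold changes here (0.08, -0.48 and 0.79). The sequences are from RefSeq on GRCm38.p6, 5′ to 3′ on the strand of each gene, with 4 stretches that hold ACGT, the core of the cyclic AMP response element (CRE), in capitals. These letters were picked after the sequences had been seen. By exact letters, the TTACGTAA of G6pc matched the D-box but neither the full CRE, TGACGTCA, nor its shorter core TGACG. TTACGTCC of Ppargc1a matched none of these. The full CRE was in none of the 4 stretches, that of Pck1 included. Such a match of letters does not decide whether a stretch works as a CRE. A further acgt of Ppargc1a near its start is in lower case.
Pck1, chr2:173152823-173153047, plus strand: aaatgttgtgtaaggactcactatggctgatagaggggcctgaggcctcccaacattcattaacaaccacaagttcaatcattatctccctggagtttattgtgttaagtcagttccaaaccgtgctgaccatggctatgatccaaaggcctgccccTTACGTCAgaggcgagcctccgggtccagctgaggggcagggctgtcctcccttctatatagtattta
G6pc, chr11:101367466-101367585, plus strand: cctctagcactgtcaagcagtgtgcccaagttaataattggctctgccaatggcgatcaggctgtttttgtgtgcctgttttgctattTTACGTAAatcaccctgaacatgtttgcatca
Ppargc1a, chr5:51567727-51567975, minus strand: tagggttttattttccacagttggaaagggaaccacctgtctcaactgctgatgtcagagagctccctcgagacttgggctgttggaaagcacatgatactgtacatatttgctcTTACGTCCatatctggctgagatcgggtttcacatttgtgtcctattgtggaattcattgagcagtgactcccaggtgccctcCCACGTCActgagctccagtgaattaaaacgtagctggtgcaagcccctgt
The Pck1 capitals TTACGTCA begin 93 bases before the RefSeq start of the gene, at the CRE known from studies of its rodent promoter. In G6pc the capitals TTACGTAA begin 162 bases before the RefSeq start, and the last 25 bases printed lie inside a longer GENCODE model of the gene. In Ppargc1a the capitals TTACGTCC and CCACGTCA begin 135 and 52 bases before the start.

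RefSeq windows were found for 8 of the 9 genes, with none for Gys2, and motifs were searched on both strands in the 250 bases before each start. The full CRE, TGACGTCA, was in none of the 8 genes and in 1.55% of 32851 windows of the same length. Its shorter core TGACG was in Pck1, Pygl and Ppargc1a, and in 17.8% of all windows. The D-box, TTATGTAA or TTACGTAA, which clock output factors bind, was in G6pc, where it is the same run of letters as the capitals above, and in 0.931% of all windows. ROR sites, TAGGTCA or AAGGTCA, were in G6pc and Slc2a2 (6.18% of all windows), the E-box CACGTG in Pcx (6.02%), the glucocorticoid receptor motif TGTTCT in Gckr (16.1%) and the TATA box TATAAA in G6pc (12.4%). The FOXO site was searched only as TGTTTAC, which was in none of the 8 genes and in 3.17% of all windows. Looser forms of this site were not searched. The letters TTACGT, searched after the sequences had been seen, were in Pck1, G6pc and Ppargc1a and in 2.40% of all windows. These are matches of letters, and binding was not measured.

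None of the 9 genes passed the test between PS-MP and water. The test was limma-trend on log2(FPKM + 0.5) over the 13299 genes with enough reads, with Benjamini-Hochberg adjustment and a threshold of 0.05, and it called 0.489% of all genes. All 9 genes were tested, on 214 to 80211 reads per library. In the same limma-trend fit, before adjustment, 4 of the 9 had a p below 0.05 (Slc2a2, Ppargc1a and Gys2 with higher means in PS-MP, G6pc with a lower one), against 13.1% of all genes, and limma-voom on whole reads recovered from the FPKM values also called 0 of the 9. The same 4 genes were those whose PS-MP and water values did not overlap, which held for 19.2% of all genes, 11.1% with PS-MP above water and 8.12% with PS-MP below. The median of the log2 fold changes was 0.07 for the 9 and 0.01 for all genes tested.

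**Figure D1:**
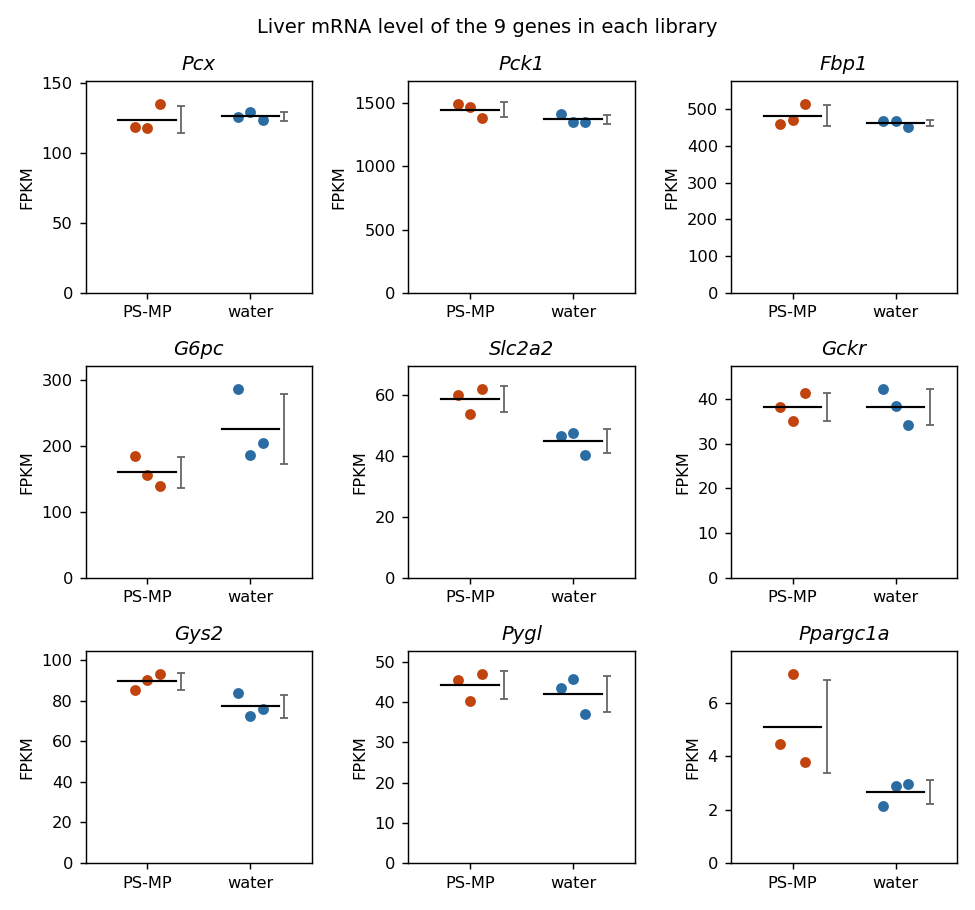
FPKM (y axis, from 0) of each of the 9 genes in the PS-MP and water libraries; points are libraries in replicate order, black lines are group means, and grey bars to their right are ± 1 SD (n = 3). The PS-MP points lie above all water points for Slc2a2, Gys2 and Ppargc1a and below them for G6pc, and the groups overlap for the other 5 genes.

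The order of the levels was the same in all 6 libraries, falling off from Pck1 at the top through Fbp1, G6pc, Pcx, Gys2, Slc2a2, Pygl and Gckr to Ppargc1a. By mean FPKM, Pck1 stood at place 39 of the 13299 genes tested and Ppargc1a at place 5657. Some neighbours lay close together: across libraries, Pygl ran from 37.1 to 47.0 FPKM and overlapped both Slc2a2 (40.2 to 62.0 FPKM) and Gckr (34.1 to 42.3 FPKM).

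Coordinates are those of GENCODE M21 on GRCm38, and no exon of the 9 genes overlaps another gene. The enzymes of the upper part of gluconeogenesis overlapped between the groups. Pcx (ENSMUSG00000024892, chromosome 19, 4510472 to 4621752, plus strand), which carboxylates pyruvate in mitochondria, had 118.3, 118.2 and 135.3 FPKM in the PS-MP libraries, against 125.9, 129.4 and 123.5 FPKM in the water libraries. Pck1 (ENSMUSG00000027513, chromosome 2, 173153048 to 173159273, plus strand) had 1498, 1468 and 1387 FPKM in PS-MP, against 1414, 1351 and 1352 FPKM in water. Neither gene separated the groups. Fbp1 (ENSMUSG00000069805, chromosome 13, 62864753 to 62888282, minus strand) had 460.7, 470.0 and 514.7 FPKM in PS-MP and 466.6, 466.4 and 451.3 FPKM in water, and also overlapped. The log2 fold changes were -0.03 for Pcx (95% interval -0.20 to 0.14), 0.08 for Pck1 (-0.12 to 0.28) and 0.06 for Fbp1 (-0.11 to 0.24), with adjusted p of 0.897, 0.742 and 0.780 by limma. Pck1 held 99.97% to 99.98% of the summed FPKM of Pck1 and its mitochondrial relative Pck2 in PS-MP and 99.97% in water. The 95% intervals above and below are not adjusted for the number of genes, and they leave room for changes within them.

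G6pc (ENSMUSG00000078650, chromosome 11, 101367561 to 101377903, plus strand), which completes both gluconeogenesis and glycogen breakdown, had 184.9, 156.2 and 138.7 FPKM in PS-MP replicates 1, 2 and 3. In water replicates 1, 2 and 3 it had 286.1, 185.2 and 204.2 FPKM. The groups did not overlap, but the highest PS-MP library and the lowest water library were almost equal. The means were 159.9 ± 23.3 FPKM in PS-MP and 225.2 ± 53.6 FPKM in water (SD, n = 3 each), a log2 fold change of -0.48 with a standard error (SE) of 0.17 and an adjusted p of 0.301 by limma. Without water replicate 1, the library with the most fat transcripts, the log2 fold change was -0.29. In the reduced refit it was -0.12. The isoenzyme G6pc3, which is made in most tissues, was low, and G6pc held 98.5% to 99.1% of the summed FPKM of the 3 isoenzymes in PS-MP and 98.5% to 99.2% in water.

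Slc37a4 encodes the transporter that brings glucose-6-phosphate to the G6pc enzyme, and its values lay on the other side. It had 74.1, 74.4 and 86.0 FPKM in PS-MP, against 55.9, 70.5 and 58.7 FPKM in water (log2 fold change 0.34 with an SE of 0.10, limma adjusted p = 0.231). All PS-MP values were above all water values. The log2 ratio of G6pc to Slc37a4, computed after the values had been seen, was 1.32, 1.07 and 0.69 in the PS-MP libraries and 2.35, 1.39 and 1.80 in the water libraries. In the reduced refit the log2 fold change of Slc37a4 was 0.07. The PS-MP minus water difference of the log2 ratio was -0.82 over all libraries and -0.20 over the libraries kept.

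Igfbp1, Pdk4 and Irs2, which FOXO1 raises in fasted liver, were picked to stand beside G6pc after their lower PS-MP means had been seen. Pck1 and Ppargc1a, which respond to the same hormones, had log2 fold changes of 0.08 and 0.79, so the 3 are no sample of such genes. Igfbp1, a secreted binding protein of insulin-like growth factors, had 90.8, 60.8 and 37.2 FPKM in PS-MP, against 242.9, 91.5 and 191.1 FPKM in water (log2 fold change -1.45 with an SE of 0.40, limma adjusted p = 0.194). The 6 libraries stood in the same order for Igfbp1 as for G6pc: water replicates 1, 3 and 2 and then PS-MP replicates 1, 2 and 3. Pdk4, a kinase that shuts pyruvate dehydrogenase, had 4.14, 6.99 and 2.63 FPKM in PS-MP and 15.6, 4.79 and 13.3 FPKM in water, so that PS-MP replicate 2 lay above water replicate 2. Irs2, an adaptor of the insulin receptor, had 2.56, 4.68 and 2.87 FPKM in PS-MP and 7.75, 2.56 and 6.197 FPKM in water. Water replicates 1 and 3 were high for Igfbp1, Pdk4 and Irs2, only water replicate 1 stood well above the rest for G6pc, and water replicate 2 lay close to or within the PS-MP values for all 4. Pdk4 and Irs2 overlapped between the groups (adjusted p = 0.337 and 0.560 by limma). The high water libraries are those with fat transcripts. PS-MP replicate 3, whose fat markers summed to 16.1 FPKM, had the lowest G6pc, Igfbp1 and Pdk4 of the 6 libraries. The part of these transcripts was not tested. In the reduced refit the log2 fold changes were -0.30 for Igfbp1, 0.16 for Pdk4 and 0.38 for Irs2, the last pair with the opposite sign.

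**Figure D2:**
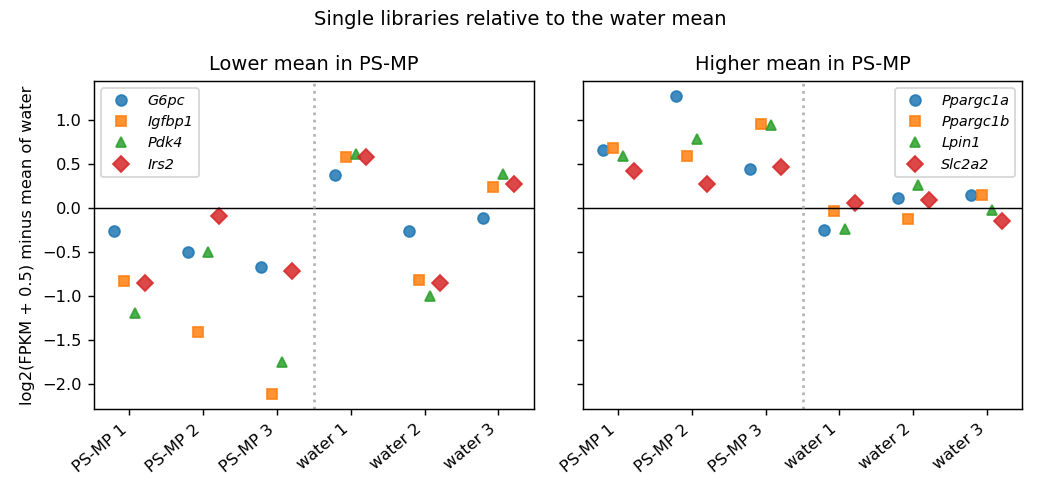
Each point is 1 gene in 1 library, as log2(FPKM + 0.5) minus the mean of the 3 water libraries (y axis, log2 units); the x axis gives the 6 libraries. On the left, water replicate 2 sits with the PS-MP libraries for Igfbp1, Pdk4 and Irs2. On the right, every PS-MP point of Ppargc1a, Ppargc1b, Lpin1 and Slc2a2 is above every water point of the same gene. These genes are among those with the smallest p of their lists, and 11.1% of all genes had PS-MP above water without overlap.

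Slc2a2 and Gckr act where glucose crosses the membrane and is trapped. Slc2a2 (ENSMUSG00000027690, chromosome 3, 28697903 to 28731359, plus strand) encodes GLUT2, the main glucose carrier of hepatocytes, and had 59.9, 53.8 and 62.0 FPKM in PS-MP, against 46.6, 47.6 and 40.2 FPKM in water. All PS-MP values were above all water values. The means were 58.6 ± 4.25 FPKM in PS-MP and 44.8 ± 3.99 FPKM in water (SD, n = 3 each), a 1.31-fold difference, with a log2 fold change of 0.39, an SE of 0.09 and an adjusted p of 0.129 by limma. Slc2a2 had the smallest p of the 9 genes, and its adjusted p ran from 0.0755 to 0.603 over 17 alternatives. The largest of these came from the reduced refit, where the log2 fold change was 0.25. Gckr (ENSMUSG00000059434, chromosome 5, 31297443 to 31327314, plus strand) encodes a regulatory protein of glucose use in hepatocytes. It had 38.3, 35.2 and 41.4 FPKM in PS-MP and 42.3, 38.4 and 34.1 FPKM in water, with overlapping groups and a log2 fold change of 0.00 (95% interval -0.22 to 0.22, limma adjusted p = 0.995).

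Among the other glucose carriers, Slc2a1, the GLUT1 of most tissues, had 3.42, 3.40 and 3.77 FPKM in PS-MP and 2.69, 4.09 and 3.44 FPKM in water, with overlapping groups. Slc2a2 held 93.6% to 94.4% of the summed FPKM of Slc2a1, Slc2a2, Slc2a3 and Slc2a4 in PS-MP and 91.8% to 94.0% in water. The genes whose levels over the 6 libraries were most like those of Slc2a2, out of 8882 compared by Pearson's r of log2(FPKM + 0.5), were Slc9a3r1, a scaffold of membrane carriers (0.99), Uap1, an enzyme that makes UDP-N-acetylglucosamine (0.99), and the small MAF factor Mafg (0.98). With 6 libraries that share the group difference, 30 genes had an r above 0.95 with Slc2a2, so this likeness is a description. Slc9a3r1 had 50.0, 46.3 and 53.7 FPKM in PS-MP and 36.5, 36.0 and 27.9 FPKM in water, the same order within PS-MP as Slc2a2.

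For glycogen, the storage enzyme and the breakdown enzyme were both detected well, and only the first had groups that did not overlap. Gys2 (ENSMUSG00000030244, chromosome 6, 142422613 to 142473109, minus strand), the liver glycogen synthase, had 85.2, 90.2 and 93.2 FPKM in PS-MP, against 83.6, 72.5 and 76.0 FPKM in water. Its log2 fold change was 0.21 with an SE of 0.07 and an adjusted p of 0.296 by limma. Pygl (ENSMUSG00000021069, chromosome 12, 70190811 to 70231488, minus strand), the liver glycogen phosphorylase, had 45.6, 40.2 and 47.0 FPKM in PS-MP, against 43.5, 45.6 and 37.1 FPKM in water. Its groups overlapped, and the log2 fold change was 0.07 (95% interval -0.15 to 0.30, limma adjusted p = 0.792). The log2 ratio of Pygl to Gys2 was -1.02 ± 0.13 in PS-MP and -0.88 ± 0.19 in water (SD, n = 3 each), a difference within the spread of the libraries. Gys2 held 98.9% to 99.2% of the FPKM of Gys1 and Gys2 in PS-MP and 99.0% to 99.1% in water. Pygl held 96.4% to 96.9% of the FPKM of the 3 phosphorylase genes in PS-MP and 97.2% to 98.3% in water. The muscle and brain forms Pygm and Pygb were at most 0.583 and 1.18 FPKM in PS-MP and at most 0.307 and 0.931 FPKM in water, with the highest value of each in PS-MP replicate 3, where brain markers were highest; the part of those transcripts was not tested.

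In the list of 26 other glycogen genes, 23 were tested and none passed the test. With an unadjusted limma-trend p below 0.05, 4 were higher in PS-MP and 3 lower, against 7.49% and 5.57% of all genes, and the median log2 fold change was 0.07 (0.0013 in the reduced refit, with 1 higher and 2 lower). Ugp2, which makes the UDP-glucose that glycogen synthase uses, had 101.9, 93.3 and 97.8 FPKM in PS-MP, against 83.6, 72.0 and 74.0 FPKM in water (log2 fold change 0.35 with an SE of 0.08, limma adjusted p = 0.119). Its groups did not overlap. It overlaps the gene model Gm12043, and the sources used here do not say whether counting used strand. Ppp1r3c, which brings protein phosphatase 1 to glycogen, had 17.6, 10.2 and 12.6 FPKM in PS-MP, against 19.0, 22.7 and 18.8 FPKM in water (log2 fold change -0.59 with an SE of 0.18, limma adjusted p = 0.230).

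Ppargc1a (ENSMUSG00000029167, chromosome 5, 51454250 to 51567726, minus strand) had the largest fold difference of the 9 genes and the lowest level. It had 4.46, 7.08 and 3.77 FPKM in PS-MP, from 385, 744 and 371 reads, against 2.14, 2.89 and 2.97 FPKM in water, from 214, 323 and 284 reads. All PS-MP values were above all water values, and PS-MP replicate 2 stood above the other PS-MP libraries. The means were 5.11 ± 1.75 FPKM in PS-MP and 2.67 ± 0.459 FPKM in water (SD, n = 3 each), a log2 fold change of 0.79 with an SE of 0.21 and an adjusted p of 0.184 by limma. Without PS-MP replicate 2 the log2 fold change was 0.55. Ppargc1a is also expressed in brain and brown fat. In its highest library, PS-MP replicate 2, the summed brain markers were 2.58 FPKM and the summed fat markers 1.58 FPKM. The brain sum was 1.42 to 1.63 FPKM in the water libraries. The log2 fold change of Ppargc1a was 0.86 in the reduced refit. That refit keeps PS-MP replicates 1 and 2, with brain sums of 3.64 and 2.58 FPKM, so it does not remove the brain difference. The part of these transcripts was not tested.

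Ppargc1a made up 36.9% to 53.7% of the summed FPKM of the 3 PGC-1 family genes in PS-MP and 36.5% to 41.3% in water. The related coactivator gene Ppargc1b had 3.45, 3.22 and 4.27 FPKM in PS-MP, against 1.91, 1.77 and 2.24 FPKM in water (log2 fold change 0.74 with an SE of 0.13, limma adjusted p = 0.0643). Its adjusted p ran from 0.0336 to 0.423 over 17 alternatives and was under 0.05 in 2 of them, limma-voom and the robust fit. It did not pass here, had no overlap between the groups and had the smallest p of the 10 tested isoenzymes and relatives of the 9 genes, of which 0 passed. The more distant Pprc1 had 2.27, 2.89 and 2.18 FPKM in PS-MP and 1.80, 2.33 and 2.33 FPKM in water, with overlapping groups. The genes most like Ppargc1a over the 6 libraries were Dst, which links cytoskeletal filaments (r = 0.99), Ppfia1, a liprin (r = 0.99), and Ccdc86 (r = 0.98). Dst had 3.99, 4.39 and 3.91 FPKM in PS-MP and 3.45, 3.59 and 3.69 FPKM in water, a far smaller difference than that of Ppargc1a.

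Genes of the circadian clock differed between the groups beside these members. Per3, a clock repressor, had 2.31, 2.67 and 3.82 FPKM in PS-MP, against 0.487, 0.706 and 0.545 FPKM in water. Of 19 clock genes tested, 4 passed with higher levels in PS-MP (Per3, Nr1d2, Dbp and Tef) and 1 with a lower level (Arntl). Over all genes the share that passed was 0.489%. Without water replicate 1, or without water replicate 3, 0 of the 19 passed. In those refits 3 and 0 of all genes passed. By unadjusted p in the limma-trend fit of all libraries, 13 of the 19 were higher in PS-MP and 3 lower, against 7.49% and 5.57% of all genes. The counts were 13 and 3 without water replicate 1, and 12 and 4 without water replicate 3. The median log2 fold change of the clock list, which holds genes of both signs, was 0.60, and 0.33 in the reduced refit. Per3 was at 1.65 and Arntl at -1.23 over all libraries, and at 1.31 and -1.17 in the reduced refit. Ciart, another clock repressor, had 12.7, 12.7 and 19.6 FPKM in PS-MP, against 0.757, 4.28 and 1.89 FPKM in water. Their part in the differences of Ppargc1a, Slc2a2, Gys2 and G6pc was not tested, and the hour of collection cannot be told apart from the groups if it differed between them.

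**Figure D3:**
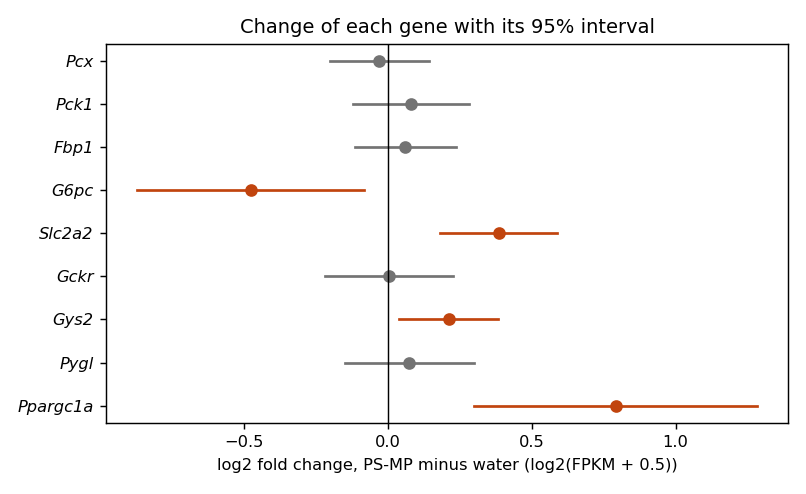
Log2 fold change of PS-MP minus water on the log2(FPKM + 0.5) scale (x axis) for the 9 genes, ordered by role; points are limma estimates and bars 95% intervals not adjusted for the number of genes. The 4 genes in red, whose groups did not overlap, run from G6pc at -0.48 to Ppargc1a at 0.79.

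Around the 9 genes, the rest of the pathway stayed below the threshold as well. Over 100 further genes of isoenzymes, shared glycolytic and gluconeogenic steps, glycolysis, substrate supply, glycogen and other sugars, 93 were tested, 67 had a positive log2 fold change against 53.7% of all genes, and 0 passed. By unadjusted p in the same limma-trend fit, 16 were higher and 8 lower, against 7.49% and 5.57% of all genes. In the reduced refit 47 of the 90 genes tested were positive, with 6 higher and 3 lower. Of the 15 enzymes and carriers that serve gluconeogenesis and mostly glycolysis too, 0 passed and the median log2 fold change was 0.04 (-0.06 in the reduced refit). Slc25a13, the mitochondrial aspartate and glutamate carrier called citrin, had 93.5, 88.1 and 98.1 FPKM in PS-MP, against 80.1, 79.5 and 78.0 FPKM in water (log2 fold change 0.23, limma adjusted p = 0.190). Among 19 tested genes of glycolysis and the fate of pyruvate, 0 passed. Pdp2, the phosphatase that reopens pyruvate dehydrogenase, had 11.5, 13.0 and 11.0 FPKM in PS-MP, against 9.24, 8.47 and 9.59 FPKM in water (log2 fold change 0.36, limma adjusted p = 0.149). Pfkfb2, which sets the level of fructose-2,6-bisphosphate, had 5.14, 5.24 and 5.80 FPKM in PS-MP, against 2.60, 4.42 and 4.27 FPKM in water, and overlaps Yod1. Its log2 fold change was 0.50, 0.28 without water replicate 1 and 0.21 in the reduced refit. The log2 ratio of Pck1 to Pklr, the liver pyruvate kinase that opposes it, was 6.204 ± 0.22 in PS-MP and 6.32 ± 0.075 in water (SD, n = 3 each).

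Genes for the entry of lactate, glycerol and amino acids lay on both sides. Gk, the glycerol kinase, had 26.6, 25.7 and 24.5 FPKM in PS-MP, against 32.98, 30.8 and 34.4 FPKM in water (log2 fold change -0.35 with an SE of 0.07, limma adjusted p = 0.0991), and it overlaps the gene model Gm14764. Slc16a1, the lactate and pyruvate carrier MCT1, had 18.8, 21.01 and 12.7 FPKM in PS-MP, against 29.9, 25.9 and 31.0 FPKM in water (log2 fold change -0.73, limma adjusted p = 0.134). Both genes had PS-MP values below all water values. Sds, which turns serine into pyruvate, had 117.6, 130.7 and 169.7 FPKM in PS-MP, against 74.0, 115.3 and 77.6 FPKM in water, and lay on the other side (log2 fold change 0.66, limma adjusted p = 0.213). In the reduced refit the log2 fold changes were -0.37 for Slc16a1 and 0.11 for Sds. Tat, tyrosine aminotransferase and the most abundant gene of this list, had 1326, 1110 and 1041 FPKM in PS-MP and 850.2, 1126 and 982.2 FPKM in water, with overlapping groups. Of the 15 genes in the list, 0 passed. By unadjusted p in the limma-trend fit, 4 were higher and 2 lower in PS-MP, against 7.49% and 5.57% of all genes. The median was 0.13, and 0.05 in the reduced refit.

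As a readout of feeding state, the lists of fasting and feeding transcripts each had 0 genes past the test. Of 24 genes known to rise in fasted mouse liver, 16 had a negative log2 fold change, with a median of -0.28. By unadjusted p in the limma-trend fit, 10 were lower and 3 higher in PS-MP, against 5.57% and 7.49% of all genes. In the reduced refit 16 of 24 were again negative, but the median was -0.09, with 4 lower and 3 higher. In the full set the 3 higher ones were Ppargc1a, Sds and Lpin1. Lpin1, a phosphatidate phosphatase that also acts as a coactivator with PGC-1alpha, had 48.2, 55.0 and 61.6 FPKM in PS-MP, against 26.9, 38.1 and 31.2 FPKM in water (log2 fold change 0.77 with an SE of 0.14, limma adjusted p = 0.0772), and 0.43 in the reduced refit. Plin2, which coats lipid droplets, had 162.5, 152.5 and 118.4 FPKM in PS-MP, against 222.4, 257.9 and 234.7 FPKM in water (log2 fold change -0.73, limma adjusted p = 0.0627). Cyp4a14, the most abundant of the list, overlapped between the groups. The list holds Pck1, G6pc and Ppargc1a themselves. These 3 had log2 fold changes of 0.08, -0.48 and 0.79 and did not share a direction.

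Of 22 tested genes known to rise in fed liver, 15 had a positive log2 fold change, with a median of 0.18. By unadjusted p in the limma-trend fit, 6 were higher in PS-MP, Gys2 among them, and 1 was lower, against 7.49% and 5.57% of all genes. The median was 0.08 in the reduced refit, with 4 higher and 0 lower, and 0.11 without PS-MP replicate 1. Thrsp, a lipogenic protein induced by carbohydrate, had 13.2, 7.57 and 21.9 FPKM in PS-MP, against 3.10, 7.60 and 4.03 FPKM in water, so that 1 PS-MP library lay at the level of water replicate 2. Its log2 fold change was 1.41, and 0.38 in the reduced refit. Srebf1, the insulin-driven lipogenic factor, had 4.36, 3.99 and 6.64 FPKM in PS-MP, against 3.20, 3.10 and 3.19 FPKM in water (log2 fold change 0.55, limma adjusted p = 0.229), and overlaps Rai1. It was 0.35 without PS-MP replicate 3. Scd1, the most abundant of the list, had a log2 fold change of -0.06. No label gives the feeding state, and a difference in feeding cannot be told apart from PS-MP by group.

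**Figure D4:**
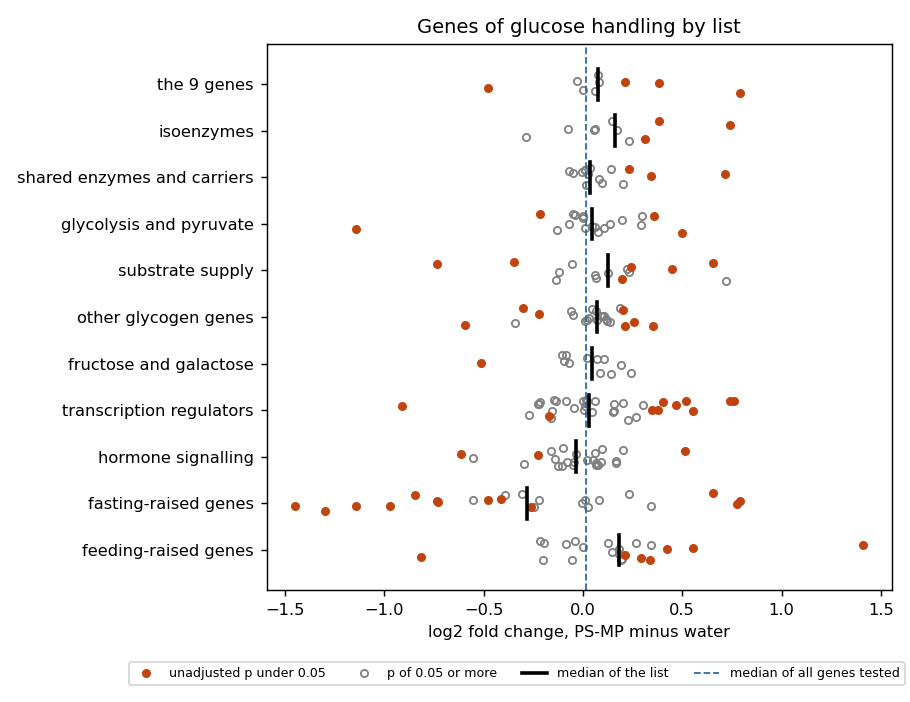
Log2 fold change of PS-MP minus water (x axis) for every tested gene of 11 lists, 1 point a gene, filled where the unadjusted limma p is under 0.05; black bars are list medians and the dashed line is the median of all genes tested (0.01). The median is -0.28 in the list of fasting-raised genes and 0.18 in that of feeding-raised genes, or -0.09 and 0.08 in the reduced refit; some genes stand in more than 1 list.

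Among 34 transcription regulators of these genes, 1 passed, against 0.489% of all genes. By unadjusted p in the limma-trend fit, 8 were higher in PS-MP and 2 lower, against 7.49% and 5.57% of all genes. The gene that passed, Nr1d2, is also among the clock genes that passed above. Nr1d2, the clock repressor REV-ERBbeta, had 22.5, 22.7 and 24.0 FPKM in PS-MP, against 12.03, 14.7 and 13.6 FPKM in water (log2 fold change 0.76 with an SE of 0.08, limma adjusted p = 0.0243), with an adjusted p of 0.00582 to 0.310 over 17 alternatives. Klf9, a factor induced by glucocorticoids, had 50.5, 56.8 and 62.8 FPKM in PS-MP, against 36.2, 38.8 and 42.8 FPKM in water (log2 fold change 0.52, limma adjusted p = 0.0918). Hnf4a, the most abundant of the list and a partner of PGC-1alpha at gluconeogenic genes, had 185.6, 199.99 and 178.2 FPKM in PS-MP and 166.8, 189.6 and 199.9 FPKM in water, with overlapping groups.

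Gluconeogenesis is strongest in hepatocytes around the portal vein, and markers of the zones were read beside the members. Of 14 periportal genes outside the 9, 11 had a positive log2 fold change and 0 passed, with a median of 0.22. The median was 0.11 without water replicate 1 and 0.03 in the reduced refit. Over all libraries, 6 were higher in PS-MP and 0 lower at an unadjusted limma p under 0.05, against 7.49% and 5.57% of all genes. Hal, a histidine-degrading enzyme of that zone, had 108.1, 112.4 and 116.9 FPKM in PS-MP, against 92.4, 102.5 and 94.2 FPKM in water (log2 fold change 0.22, limma adjusted p = 0.237), and 0.10 in the reduced refit. The periportal enzymes among the members did not share a side, with Pck1 at 0.08, Fbp1 at 0.06 and G6pc at -0.48. Of 12 tested pericentral genes, 5 had a positive log2 fold change and 0 passed, with a median of -0.04 (-0.07 in the reduced refit). Lgr5, a WNT-driven gene of the cells around the central vein, had 1.10, 0.630 and 0.856 FPKM in PS-MP, against 1.51, 1.40 and 1.38 FPKM in water, and Slc1a2, a glutamate carrier of the same zone, had a log2 fold change of 0.43, and 0.23 in the reduced refit.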

How the data were processed

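The authors deposited 1 FPKM value per gene and library. Per the submitters' processing notes, the tools were CASAVA, FastQC, MultiQC, Trimmomatic 0.38, HISAT2 2.1.0, featureCounts 1.6.0 and DESeq2 1.22.1, with no role given for DESeq2. They list GRCh38, a human build, but all 55536 identifiers match mouse GENCODE M21 on GRCm38, which gave symbols and coordinates. Each FPKM value times the merged exon length, divided by what 1 read is worth in that library, was a whole number of reads within 0.001 for 100% of genes above 0 in each library. These reads gave depth and the low-value filter: 0.66 CPM or more in 3 libraries, which is 10 reads at median depth, and a total of 15 reads or more.

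Since the deposited unit is FPKM, log2(FPKM + 0.5) was tested with limma 3.58.1 (R 4.3.3), with group as the only term and all 6 libraries. A fold change on this scale understates the change of low genes. The fit was also run on simulated reads with known fold changes, the same dispersion for every gene and no uneven fat or brain transcripts. That run was a check of the code and does not give error rates for these libraries. The members and lists were chosen with earlier results of these data known, and the counts over lists are descriptions. Named genes are the 9 members and, in each list, up to 4 changed genes, the 2 others with the smallest p and, in 6 lists, the most abundant gene, with the 3 genes most like each of Slc2a2 and Ppargc1a. Igfbp1, Pdk4, Irs2, Pygb, Pprc1 and G6pc3 were named after their values were seen. The marker Tf matched no symbol. No library pair within a group was identical. Some listed genes are not reported here.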

Additional observations from a re-analysis of the deposited data

How the results depend on the processing

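Refits changed 1 choice at a time, with 16 other settings and 1 more, leaving out the 3 libraries with brown fat transcripts, chosen after seeing the data. None of the 9 genes passed in any of the 17. The number of all genes changed was 65. It was 0 with no low-value filter (2064 had an unadjusted p under 0.05), 133 with limma-voom, 23 with the replicate block and 0 without the libraries with brown fat transcripts (1048 had an unadjusted p under 0.05). It ran from 0 to 33 with 1 library left out, and was 0 without water replicate 3 and 3 without water replicate 1. Over the pathway and clock lists the 5 changed genes became 0, 16, 3 and 0 under these 4 settings, and 0 to 5 with 1 library left out. The median log2 fold change of the members was -0.0035 without the libraries with brown fat transcripts, and 0.03 to 0.10 with 1 library left out.

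Gckr, Pcx, Fbp1 and Pygl, all near 0, changed sign in 11 of 153 refits of single members. Gckr was -0.0211 with median-of-ratios scaling, -0.0197 with upper quartile scaling, -0.0149 with the 20 most abundant genes left out of the total, -0.0640 without the libraries with brown fat transcripts, and -0.0767 to 0.0762 with 1 library left out. With 1 library left out, Pcx ran from -0.0942 to 0.0031 and Pygl from -0.0130 to 0.14. Without the libraries with brown fat transcripts, Fbp1 was -0.0035 and Pygl -0.0912. The cause was not tested. Other scalings moved the median of all genes by at most 0.02.

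The groups share replicate numbers, and same-numbered libraries had correlations of -0.04, 0.05 and -0.01 in their deviations from the group means. No pairing by number was visible, but with 3 libraries a group this cannot show that the samples were unpaired. The replicate block is given only here. Not every library correlated best with its own number. The members had 214 to 80211 reads per library; limits set by depth were not tested.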

Other observations

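Genes of fructose, sorbitol and galactose entry showed no call: 12 were tested and 0 passed with limma-trend. Of the 12, 7 had a positive log2 fold change, and the median was 0.05 (-0.02 without the libraries that hold brown fat transcripts). In the limma-trend fit of all libraries, 1 had an unadjusted p under 0.05, against 13.1% of all genes. Sord, which turns sorbitol into fructose, had 391.5, 370.8 and 435.4 FPKM in PS-MP and 392.4, 332.0 and 294.4 FPKM in water, with overlapping groups.

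Among 25 genes of hormone signalling in liver, 12 had a positive log2 fold change and 0 passed with limma-trend. In that fit 3 had an unadjusted p under 0.05, against 13.1% of all genes. Avpr1a, the vasopressin receptor that triggers glycogen breakdown, had 6.18, 4.35 and 4.90 FPKM in PS-MP, against 8.31, 7.65 and 8.20 FPKM in water (log2 fold change -0.61, adjusted p = 0.101 by limma, 0.0476 to 0.590 over 17 alternatives). Pik3r1, the regulatory subunit of the kinase that carries the insulin signal, had 9.59, 10.1 and 9.99 FPKM in PS-MP, against 6.01, 8.05 and 6.39 FPKM in water (log2 fold change 0.51, adjusted p = 0.110 by limma, 0.0472 to 0.600 over 17 alternatives), and its log2 fold change was 0.27 without the libraries that hold brown fat transcripts. The receptors themselves overlapped between the groups: Gcgr, the glucagon receptor, had 61.7 ± 2.44 FPKM in PS-MP and 63.7 ± 4.45 FPKM in water, and Insr, the insulin receptor, had 16.5 ± 0.388 FPKM in PS-MP and 15.9 ± 1.44 FPKM in water (SD, n = 3 each). Gcgr and Insr were named after their values were seen.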
